A study of Homo sapiens with 4 samples.

Results

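The 10 genes described here are ATF4, DDIT3 (which encodes CHOP), ATF3, ATF5, CEBPB, TRIB3, CHAC1, SESN2, DDIT4 and ASNS, the regulators and best-known targets of the ATF4 and CHOP stress pathway. They were taken from a fixed set of names, proposed with earlier results of these data known, and are 10 of the 58735 genes in the deposited tables. All 10 were abundant enough to be tested, among 16091 genes tested in all. RNA from HCT116, an established human colon cancer epithelial line, was sequenced from cells carrying a control shRNA (control_sh, 2 libraries) and from cells carrying an shRNA against RBM25 (RBM25_sh, 2 libraries). RBM25 is an RNA-binding protein of the splicing machinery, and the study asked how its loss changes gene expression. Both groups were grown in McCoy's 5A medium with serum, and the labels name no stress treatment, drug or other genotype. They do not give the shRNA sequences, how many shRNAs or clones were used, or whether the 2 libraries of a group came from separate cultures, so a p-value here reflects how far the libraries of a group differ, which could be technical variation alone.

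When eIF2, the factor that brings the initiator tRNA to the ribosome, is phosphorylated by one of its kinases, general translation falls while translation of the ATF4 mRNA rises through its upstream open reading frames. ATF4 is a bZIP transcription factor that pairs with C/EBP proteins and switches on genes for amino acid synthesis and uptake, tRNA charging and redox balance, and also DDIT3. CHOP in turn is known for inducing feedback regulators and, under lasting stress, cell death genes. Because ATF4 is controlled largely at translation, its mRNA level is not a measure of its protein level, and protein was not analysed here.

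The DNA element linked to this pathway is the C/EBP-ATF response element, whose core was searched as TGATGNAA, or TTNCATCA on the other strand, in the 250 bases before each start in RefSeq (GRCh38.p14). The members have 19 such windows, with at least 1 for each of the 10 genes. The core was found before a start of 3 members, ATF3, CHAC1 and ASNS, against 3.89% of the 27305 symbols and 3.14% of all 35116 windows. These 3 matches are shown because the element is the one ATF4 is known to bind. Each is 30 bases, 5′ to 3′ on the gene's strand, with the core in capitals.
ATF3: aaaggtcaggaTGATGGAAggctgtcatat
CHAC1: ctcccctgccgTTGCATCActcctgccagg
ASNS: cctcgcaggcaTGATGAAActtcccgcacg
The ATF3 stretch is chr1:212565205-212565234 (plus strand), with the core 191 to 184 bases before the start at 212565407 and outside annotated exons. The CHAC1 stretch is chr15:40953251-40953280 (plus strand), with the core 209 to 202 bases before the start at 40953471. The ASNS stretch is chr7:97872458-97872487 (minus strand), with the core 68 to 61 bases before the start at 97872408. In CHAC1 and ASNS the 30-base stretch overlaps an exon of the GENCODE annotation. The gene and strand of that exon were not recorded.

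None of the 3 members that passed the test below has this core in the searched windows. The stretch before DDIT4 is shown as the example of a called member without it, from 250 to 5 bases before the start, chr10:72273674-72273919 on the plus strand, all in lower case because no motif matched.
DDIT4: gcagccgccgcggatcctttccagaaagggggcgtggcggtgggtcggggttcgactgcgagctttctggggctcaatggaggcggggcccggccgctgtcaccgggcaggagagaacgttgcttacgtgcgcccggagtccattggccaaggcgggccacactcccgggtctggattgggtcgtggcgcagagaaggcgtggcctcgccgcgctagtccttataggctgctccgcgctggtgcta
The cyclic AMP response element TGACGTCA and the endoplasmic reticulum stress element, CCAAT and CCACG with 9 bases between them, were searched on both strands and matched before none of the 10 genes. They occur in 1.65% and 0.074% of all windows. A match is only a description of the letters, and a missing match says nothing about sites outside the window.

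The libraries held 15528274 to 16982663 counts. RBM25 itself was at 155 and 115 CPM (a gene's counts scaled to library size, with TMM factors between libraries) in the controls and at 44.0 and 35.7 CPM in the RBM25_sh libraries, a log2 fold change of −1.76 ± 0.30 (SE) with an edgeR quasi-likelihood Benjamini-Hochberg adjusted p of 0.0195. After GC correction the log2 fold change was −1.95. Without RBM25_sh replicate 1 the adjusted p was 0.119, and without RBM25_sh replicate 2 it was 0.202. A fit without 1 library leaves 1 library in that group, so its variation comes from the other group alone. Whether a gene is called in such a fit depends on which library is left out, here and below. Of 12 epithelial markers, 8 were abundant enough to be tested and CDX1 was listed at 0 in every library. Their summed level was 3615 and 4554 CPM in the controls and 4563 and 5724 CPM in the RBM25_sh libraries. The 14 markers of blood, stromal, endothelial and liver cells summed to 44.5 and 68.5 CPM in the controls and to 39.6 and 51.4 CPM after knockdown. Most of this was the collagen gene COL1A1, with a mean of 50.5 CPM in the controls and 42.0 CPM after knockdown. Only 3 of the 14 were abundant enough to be tested, and CD3E and COL1A2 were at 0 throughout. In bulk RNA, fewer cells of a type and less RNA per cell cannot be told apart.

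A difference between the replicates bears on every value below. In both groups replicate 2 was higher than replicate 1 in genes of high GC content, with a Spearman correlation across 16083 genes of 0.727 in the controls and 0.652 after knockdown, given as a description since genes of 1 library share its preparation. The members' transcripts have a GC content of 46.7% to 66.2%. Replicate 2 was above replicate 1 in 10 of 10 members in the controls and in 9 of 10 after knockdown, against 50.1% and 50.9% of all genes tested. Members of lower GC content, such as DDIT3 at 49.7% and ASNS at 47.0%, were among them in both groups. Because of the GC trend, results for the members and lists are also given after a GC correction. It takes out the smooth dependence of log2 CPM on GC content in every library ahead of the same edgeR test. With it, the members' median log2 difference, replicate 2 minus replicate 1, went from 0.51 to 0.09 in the controls. After knockdown this median went from 0.54 to 0.18. The log2 fold change between the groups also followed GC content, with a Spearman correlation of −0.216 across genes. The correction therefore also takes out a GC-linked difference between the groups, whatever its source.

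DDIT3, TRIB3 and DDIT4 were lower after RBM25 knockdown, by 7.60-fold, 5.18-fold and 4.95-fold, while the mRNA of ATF4 itself was not called. In the edgeR quasi-likelihood test with Benjamini-Hochberg adjustment over all genes, 3 of the 10 members passed the threshold of 0.05 downwards and 0 upwards, where 2.4% of all genes tested passed downwards and 0.653% upwards. At an unadjusted p under 0.05 there were 6 members lower and 0 higher, where 13.5% of all genes tested were lower and 7.92% higher, and no alternative fit called a member higher. All 10 log2 fold changes were below 0, with a median of −1.05 against −0.04 for all genes tested. In 8 of 10 members both RBM25_sh libraries lay below both controls, where 27.9% of all genes did so, and 23.9% of genes lay above. ATF5 is among the 8 only by 20.87 against 20.84 CPM, and its groups overlapped in the deposited FPKM. After GC correction 6 members were called lower and 0 higher, with a median of −0.89, but this fit also called 15.3% of all genes lower and 12.8% higher. The share of called genes that were higher was 21.4% in the uncorrected fit and 45.5% after GC correction.

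**Figure D1:**
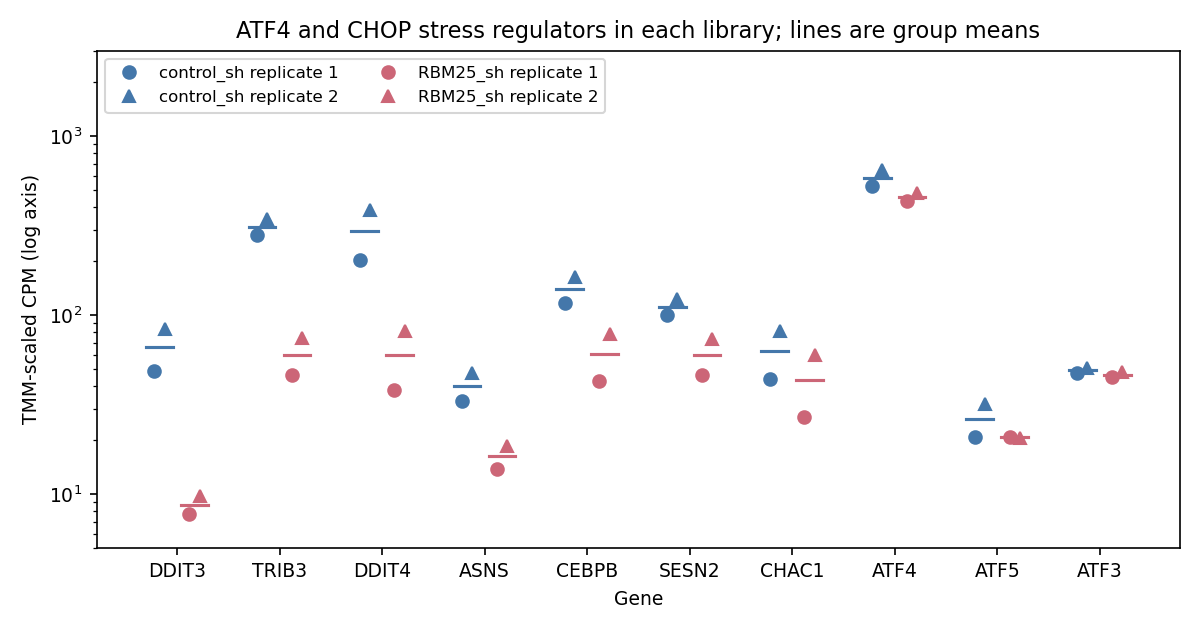
TMM-scaled CPM of each of the 10 genes in the 4 libraries, on a log axis. Points are single libraries, with control_sh and RBM25_sh in different colours; DDIT3 drops from 48.6 and 83.7 to 7.71 and 9.68, while the ATF3 libraries of both groups lie together.

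Among the transcription factors, ATF4 (chromosome 22, 39519695 to 39522685, plus strand, GRCh38) was at 528 and 644 CPM in the controls and at 432 and 479 CPM in the RBM25_sh libraries. Both knockdown libraries lay below both controls, but the gap was small beside the distance between the controls. The log2 fold change was −0.36 ± 0.26 (SE), with an edgeR adjusted p of 0.463 and, after GC correction, −0.19 ± 0.15 with an adjusted p of 0.362. This difference did not pass the test in either fit. ATF4 shares no exon bases with another annotated gene, and the same holds for ATF3, TRIB3, CHAC1 and SESN2.

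DDIT3 (chromosome 12, 57516588 to 57521737, minus strand) encodes CHOP, which pairs with C/EBP proteins and is itself a target of ATF4. It was at 48.6 and 83.7 CPM in the controls and at 7.71 and 9.68 CPM after knockdown, or 66.2 ± 24.8 against 8.70 ± 1.40 (mean ± SD, n = 2 each). The groups lay far apart, and the lower control was still several times the higher knockdown library. DDIT3 fell by 2.93 ± 0.36 (SE) on the log2 scale, with an edgeR adjusted p of 0.00707 and, after GC correction, a log2 fold change of −2.90 ± 0.25 and an adjusted p of 2.05e-04. Without each library in turn, the log2 fold change of DDIT3 lay between −3.26 and −2.48. The DDIT3 exons share 355 bases, 27.2% of their length, with MARS on the other strand. The strand setting of the counting is not given, so reads from the shared bases cannot be told apart. MARS, which encodes a methionyl-tRNA synthetase, had a log2 fold change of −0.81 and an edgeR adjusted p of 0.126, or 0.00663 after GC correction.

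ATF3, a stress-induced bZIP factor, was at 47.7 and 50.7 CPM in the controls and at 44.8 and 48.0 CPM after knockdown. These groups overlapped, and the log2 fold change was −0.08 ± 0.27 (SE) with an edgeR adjusted p of 0.888. ATF5, the closest relative of ATF4 and known for mitochondrial stress, was at 20.9 and 31.6 CPM against 20.8 and 20.6 CPM. The lower control was almost level with the knockdown libraries, and the log2 fold change of −0.34 ± 0.31 had an edgeR adjusted p of 0.570. For ATF3 and ATF5 the GC-corrected log2 fold changes were −0.13 and −0.09. ATF5 shares 626 exon bases, 21.2% of its length, with NUP62 on the other strand.

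CEBPB (chromosome 20, 50190734 to 50192689, plus strand), a C/EBP partner of both ATF4 and CHOP, was at 116 and 164 CPM in the controls and at 42.6 and 78.6 CPM after knockdown. The groups did not overlap. The log2 fold change was −1.21 ± 0.35 (SE), short of the threshold with an edgeR adjusted p of 0.0931, and passed it after GC correction at −1.05 ± 0.15 with an adjusted p of 0.00186. CEBPB is the member of highest GC content, at 66.2%, and shares 11.8% of its exon bases with the antisense gene CEBPB-AS1.

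**Figure D2:**
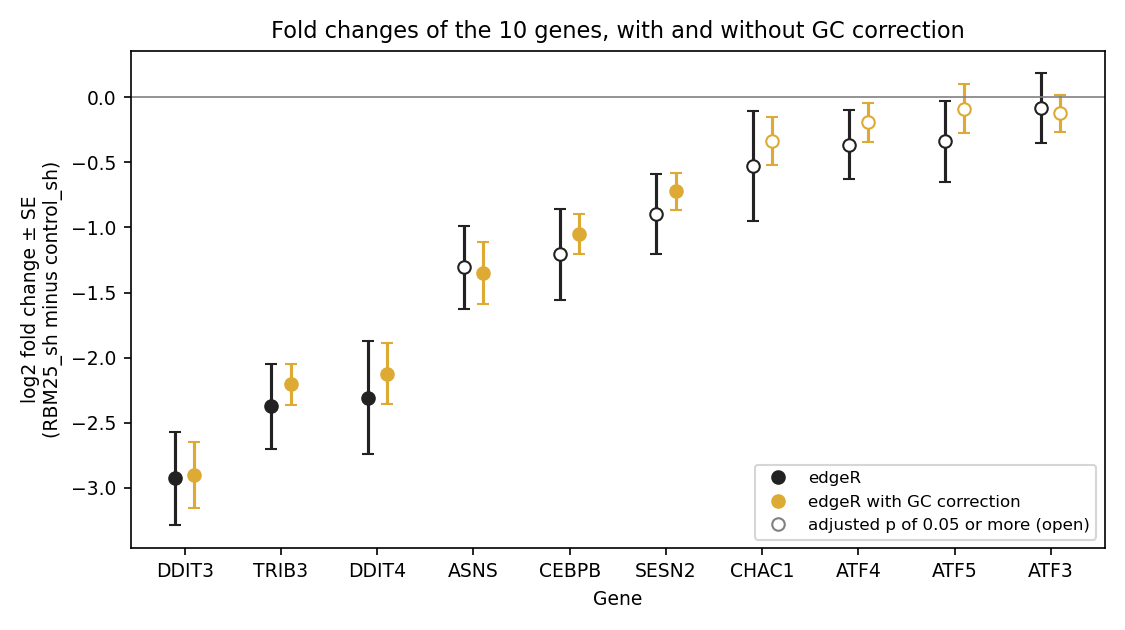
log2 fold change (RBM25_sh minus control_sh) of each member with its standard error, from the edgeR fit before and after GC correction, with filled points for adjusted p below 0.05. All 10 values lie below 0 in both fits, from −2.93 for DDIT3 to −0.08 for ATF3 before correction, and the correction narrows most of the errors.

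Among the targets, TRIB3 (chromosome 20, 362835 to 397559, plus strand) encodes a pseudokinase that is induced by ATF4 and CHOP and dampens both. It was at 281 and 343 CPM in the controls and at 46.0 and 74.3 CPM after knockdown, or 312 ± 44.0 against 60.2 ± 19.98 (mean ± SD, n = 2 each). No knockdown library came near the controls. TRIB3 fell by 2.37 ± 0.33 (SE) on the log2 scale, with an edgeR adjusted p of 0.0112, 8.78e-05 after GC correction and 0.0654 without RBM25_sh replicate 1.

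DDIT4 (chromosome 10, 72273920 to 72276036, plus strand) encodes REDD1, an inhibitor of the growth kinase complex mTORC1. It was at 204 and 388 CPM in the controls and at 38.2 and 81.2 CPM after knockdown. The groups did not overlap, although replicate 2 was far above replicate 1 in both. DDIT4 fell by 2.31 ± 0.43 (SE) on the log2 scale, with an edgeR adjusted p of 0.0272, 6.26e-04 after GC correction and 0.126 without RBM25_sh replicate 1. On log2 FPKM, tested with limma-trend, its adjusted p was 0.06 with a pseudocount of 1 and 0.0549 with 0.1. The opposite-strand gene DDIT4-AS1 covers 41.2% of its exon bases and was listed at 0 counts in every library. How reads from the shared bases were counted is not given, so these 0 counts do not show that DDIT4 lost no reads.

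ASNS (chromosome 7, 97852118 to 97872542, minus strand), the asparagine synthetase and a standard ATF4 reporter gene, was at 33.0 and 47.4 CPM in the controls and at 13.9 and 18.6 CPM after knockdown. Both knockdown libraries were well below both controls. The log2 fold change was −1.31 ± 0.32 (SE), with an edgeR adjusted p of 0.0589, just short of the threshold, and 0.00445 after GC correction. A transcript on the same strand, AC079781.5, shares 44.6% of the ASNS exon bases and had between 1 and 34 counts per library. Reads from these shared bases cannot be told apart, and how they were counted is not given.

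SESN2 (chromosome 1, 28259527 to 28282491, plus strand) encodes sestrin 2, a leucine sensor that restrains mTORC1. It was at 99.5 and 123 CPM in the controls and at 46.5 and 73.1 CPM after knockdown. The groups did not overlap, and the log2 fold change of −0.90 ± 0.31 (SE) had an edgeR adjusted p of 0.140, or 0.00618 after GC correction. CHAC1 (chromosome 15, 40952962 to 40956519, plus strand), an enzyme that degrades glutathione and an established CHOP and ATF4 target, was at 44.1 and 81.2 CPM against 27.0 and 59.8 CPM. Here the groups overlapped, and replicate 2 was above replicate 1 in both. Its log2 fold change was −0.53 ± 0.42 (SE), with an edgeR adjusted p of 0.506 and, after GC correction, 0.195.

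In each of the 10 members both knockdown libraries were below the control of the same number, where 40.1% of all genes tested showed that. ATF5 was nearly level in replicate 1, with a log2 ratio of −0.0023. In the deposited FPKM its replicate 1 was higher after knockdown, at 7.13 against 6.80. For the 3 called genes the log2 ratios of replicates 1 and 2 were −2.64 and −3.09 for DDIT3, −2.61 and −2.21 for TRIB3, and −2.41 and −2.25 for DDIT4. For CHAC1 they were −0.70 and −0.44, and for ATF3 −0.09 and −0.08. The numbers are names only, and whether they pair the cultures is not given in the labels.

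Levels between genes were compared per length, in the deposited FPKM (counts scaled by gene length and by a constant for each library). In the controls ATF4 was highest at 224 ± 30.8 FPKM (SD, n = 2), followed by DDIT4 at 138 ± 60.4, TRIB3 at 87.3 ± 12.1, CEBPB at 68.8 ± 16.2 and DDIT3 at 48.6 ± 18.1. SESN2 at 31.0 ± 4.63 and CHAC1 at 29.2 ± 12.2 came next, then ATF3 at 11.7 ± 0.478, ASNS at 8.66 ± 2.18 and ATF5 at 8.54 ± 2.45. Of the 9 neighbouring pairs in this order, the libraries did not overlap between ATF4 and DDIT4, DDIT3 and SESN2, CHAC1 and ATF3, and ATF3 and ASNS, while the order of the other neighbours lies within their spread. After knockdown ATF4 stayed first at 178 ± 6.93 FPKM and CEBPB was second at 30.3, with DDIT3 at 6.54 next to last, above ASNS at 3.58. CEBPB overlapped DDIT4 there, and DDIT3 overlapped ATF5, so these ranks lie within the spread of the libraries. The FPKM divides by the full listed length, and how reads in bases shared between genes were counted is not given. ASNS shares 44.6% of its exon bases with AC079781.5, DDIT4 41.2% with DDIT4-AS1, DDIT3 27.2% with MARS and ATF5 21.2% with NUP62. CEBPB shares 11.8% with CEBPB-AS1. Whether the ranks of these genes, or gaps such as that between ATF3 and ASNS, depend on that counting was not tested.

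Set against ATF4 in the same library, the DDIT3 level per length was 17.7% and 25.0% of ATF4 in the controls and 3.43% and 3.89% after knockdown. TRIB3 was at 38.9% and 39.0% of ATF4, against 7.80% and 11.4%. DDIT4 was at 47.1% and 73.5%, against 10.8% and 20.7%. These 3 ratios were lower in both knockdown libraries, and so were those of CEBPB, SESN2 and ASNS. ATF3 was at 5.62% and 4.90% of ATF4 in the controls and at 6.46% and 6.23% after knockdown, higher in both knockdown libraries. The ratios of CHAC1, at 10.2% and 15.4% against 7.64% and 15.3%, and of ATF5 overlapped between groups.

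**Figure D3:**
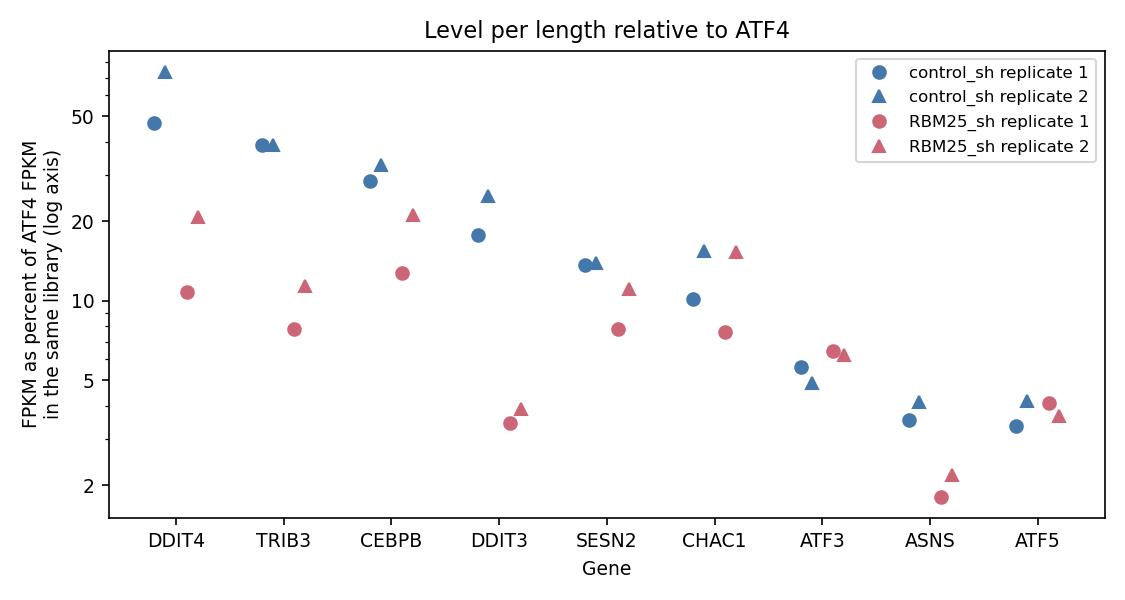
Deposited FPKM of each member as a percentage of ATF4 FPKM in the same library, on a log axis, with 1 point per library. DDIT3 and TRIB3 lie lower in both RBM25_sh libraries, at 3.43% to 11.4%, while the points of CHAC1 overlap between groups.

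By the distance between the 4 centred log2 CPM values, the 3 genes with a pattern most like DDIT3, among 10076 protein-coding genes, were H1F0, a linker histone, at 0.22, BCAN at 0.32 and GSTZ1, an enzyme of tyrosine breakdown, at 0.32. There were 46 genes within a distance of 1. For ATF4 the 3 nearest were EMP3, UVSSA and MAPK13, each at 0.03, and 7607 genes lay within 1, so this nearness singles out no gene. With 4 libraries this likeness is a description only.

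Upstream of ATF4, the list of eIF2 kinases, phosphatase subunits, eIF2 and eIF2B had 18 genes, all tested. There 1 was called lower and 0 higher, with a median log2 fold change of 0.01. Over all genes tested 2.4% were called lower and 0.653% higher, the shares to set beside this list and those below. The called gene was PPP1R15A, or GADD34, the phosphatase subunit that reverses eIF2 phosphorylation and is itself induced by the pathway. PPP1R15A was at 114 and 175 CPM in the controls and at 31.9 and 51.4 CPM after knockdown. The groups did not overlap, and it fell by 1.80 ± 0.34 (SE) on the log2 scale with an edgeR adjusted p of 0.0284, 1.73e-04 after GC correction and 0.326 without RBM25_sh replicate 1. None of the 4 kinases was called by edgeR without correction. EIF2AK3 (PERK, the kinase of the endoplasmic reticulum) had a log2 fold change of −0.47 with an edgeR adjusted p of 0.402, and EIF2AK2 (PKR, activated by double-stranded RNA) of 0.73 with 0.224. EIF2AK1 and EIF2AK4, activated by haem shortage and by uncharged tRNA, were at −0.27 and 0.14. After GC correction EIF2AK3 was called at −0.54 and EIF2AK2 at 0.56, with edgeR adjusted p-values of 0.0382 and 0.0131. They were among 3 lower and 4 higher calls in the list of 18, where this fit called 15.3% and 12.8% of all genes tested. These counts do not single out the list.

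The list of other ATF4 targets held 49 genes, of which 45 were tested. There 8 were called lower and 0 higher, where 2.4% and 0.653% of all genes tested were. The median log2 fold change was −0.81, and 41 of the 45 were below 0, against 52.5% of all genes tested. Both knockdown libraries lay below both controls in 31 and above in 1, against 27.9% and 23.9% of all genes tested. The lowest log2 fold change of the 45 was that of PCK2, the mitochondrial phosphoenolpyruvate carboxykinase. It was at 138 and 202 CPM in the controls and at 9.58 and 17.4 CPM after knockdown. PCK2 fell by 3.65 ± 0.38 (SE) on the log2 scale, with an edgeR adjusted p of 0.00488. Without each library in turn, its log2 fold change lay between −4.11 and −3.27.

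The other 7 called ATF4 targets had log2 fold changes between −1.95 and −1.41. SARS and AARS, which charge serine and alanine tRNAs, fell by 1.69 and 1.57 on the log2 scale, with edgeR adjusted p-values of 0.0163 and 0.0219. PHGDH, which starts serine synthesis from a glycolytic intermediate, fell by 1.67 with 0.0251. Named after their values were seen, MTHFD2 fell by 1.41 and ALDH1L2 by 1.95, both enzymes of mitochondrial folate metabolism, SLC7A11, the cystine carrier, by 1.67, and STC2, a secreted glycoprotein, by 1.60, with edgeR adjusted p-values of 0.0319, 0.0403, 0.0309 and 0.0384. All 7 lost the call without RBM25_sh replicate 1, when 1 of the list's genes was called. Without RBM25_sh replicate 2 the count was 2, without control_sh replicate 1 it was 21 and without control_sh replicate 2 it was 14. After GC correction 31 genes of the list were called lower and 2 higher, where 15.3% and 12.8% of all genes tested were. All 8 named here were among the lower, with log2 fold changes from −3.47 for PCK2 to −1.46 for AARS.

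**Figure D4:**
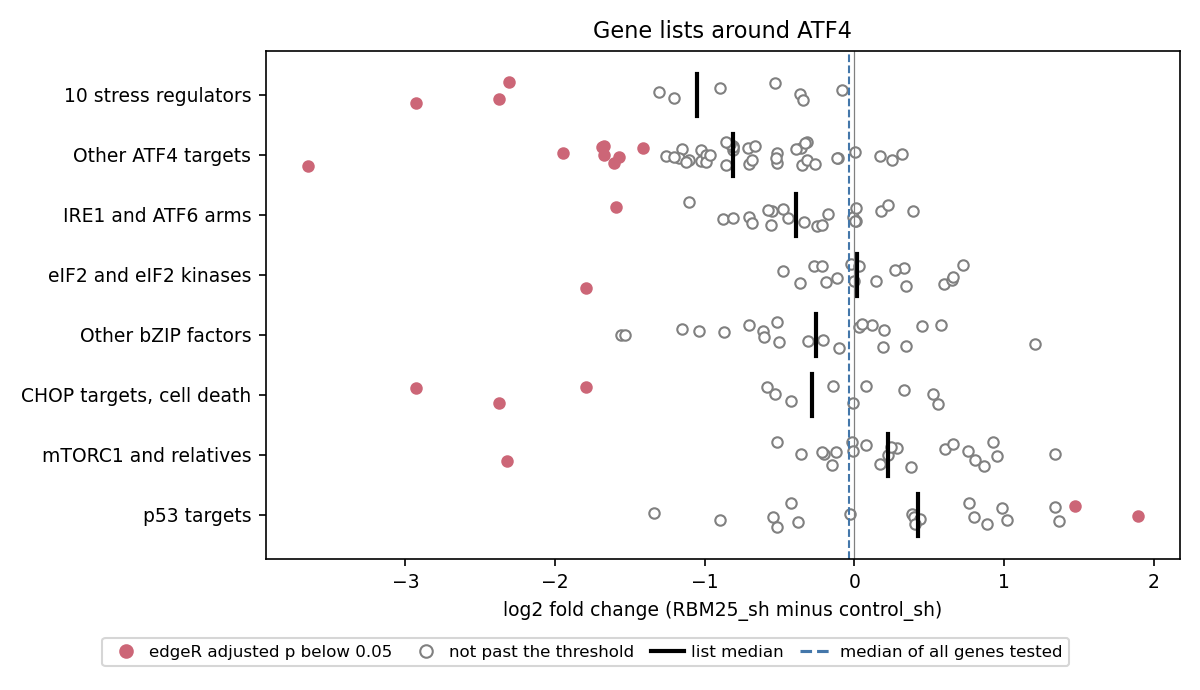
log2 fold change (RBM25_sh minus control_sh) of every tested gene in 8 lists, with called genes filled, a bar at each list's median and a dashed line at the median of all genes tested. The 10 stress regulators and the other ATF4 targets have medians of −1.05 and −0.81, and the p53 targets one of 0.42.

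The list of other bZIP factors that can pair with these proteins also holds CEBPZ, which despite its name is not a bZIP factor. Of the 24 listed genes 22 were tested, 0 were called in either direction by edgeR, and the median log2 fold change was −0.26. At an unadjusted p under 0.05 there were 6 lower and 1 higher (13.5% and 7.92% of all genes tested), the DESeq2 Wald test called 2 lower and 1 higher, and limma-voom called 0. CEBPG, the C/EBP partner that ATF4 uses at amino acid genes, had a log2 fold change of −1.15 with an edgeR adjusted p of 0.0565. JUN was at 1.21 with 0.0892, and JUNB at −1.53 with 0.105. After GC correction 7 were called lower, CEBPG and JUNB among them, and 2 higher, JUN among them (15.3% and 12.8% of all genes tested).

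Of 12 CHOP targets and cell death genes, 3 were called lower and 0 higher, and 2 of these, DDIT3 and TRIB3, are among the 10 members. Without the members, 1 of 9 was called, PPP1R15A, and the median was −0.01. TNFRSF10B, the death receptor DR5 and a CHOP target, had a log2 fold change of −0.58 with an edgeR adjusted p of 0.245, and was called after GC correction at −0.55 with 0.0199. After GC correction 4 of the 12 were called lower and 2 higher, and without the members 2 of 9 lower and 2 higher. That fit called 15.3% of all genes tested lower and 12.8% higher.

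In the IRE1 and ATF6 arms of the unfolded protein response, the branches that raise chaperones and degradation in the endoplasmic reticulum, 1 of 22 genes was called lower and 0 higher, with a median of −0.39. The called gene was ERN1, which encodes IRE1 itself. ERN1 was at 71.1 and 77.0 CPM in the controls and at 25.5 and 23.6 CPM after knockdown, and fell by 1.59 ± 0.27 (SE) with an edgeR adjusted p of 0.0212, or 0.220 and 0.225 without RBM25_sh replicate 1 and 2. XBP1, whose mRNA IRE1 splices, was at −0.81 with an edgeR adjusted p of 0.133, and the chaperone HYOU1 at −1.10 with 0.0744. After GC correction 9 of the 22 were called lower, ERN1, XBP1 and HYOU1 among them, and 0 higher (15.3% and 12.8% of all genes tested).

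In the list of mTORC1 regulators and relatives of SESN2, DDIT4, CHAC1, TRIB3 and ASNS, 23 of 24 genes were tested, 1 was called lower and 0 higher by edgeR, and the median log2 fold change was 0.23. At an unadjusted p under 0.05 there were 1 lower and 6 higher (13.5% and 7.92% of all genes tested). The DESeq2 Wald test called 2 higher. After GC correction 2 were called lower and 7 higher (15.3% and 12.8% of all genes tested), with SESN1, TRIB1 and TRIB2 among the higher. SESN1 was at 21.6 and 15.1 CPM in the controls and at 50.4 and 42.5 CPM after knockdown, a log2 fold change of 1.34 ± 0.31 (SE) with an edgeR adjusted p of 0.0501. TRIB1 and TRIB2 were at 0.87 and 0.76, with edgeR adjusted p-values of 0.107 and 0.161. The called gene was DEPTOR, an inhibitor bound to mTOR, at 7.21 and 7.53 CPM in the controls and at 1.41 and 1.53 CPM after knockdown. It fell by 2.32 ± 0.38 (SE), with an edgeR adjusted p of 0.0174 and 0.00112 after GC correction. Without each library in turn, its log2 fold change lay between −2.35 and −2.24.

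SESN2, DDIT4 and ATF3 can also be p53 targets, and HCT116 is known for a working p53. Of 20 p53 targets, 0 were called lower and 2 higher by edgeR, with a median log2 fold change of 0.42. At an unadjusted p under 0.05 there were 2 lower and 9 higher (13.5% and 7.92% of all genes tested), and the DESeq2 Wald test called 1 lower and 7 higher. After GC correction 3 were called lower and 11 higher (15.3% and 12.8% of all genes tested), with TIGAR and FAS among the higher. The list holds the member SESN2, and without it 2 of 19 were called lower and 11 higher in that fit. SESN1 is also in the mTORC1 list, and GDF15 is also among the other ATF4 targets. TIGAR, an enzyme that restrains glycolysis, was at 1.83 and 2.18 CPM in the controls and at 8.24 and 6.75 CPM after knockdown, and FAS, a death receptor, at 21.9 and 13.1 CPM against 51.9 and 45.5 CPM. Both groups of libraries lay apart in each gene. TIGAR rose by 1.90 ± 0.37 and FAS by 1.47 ± 0.33 (SE) on the log2 scale, with edgeR adjusted p-values of 0.0316 and 0.046. TIGAR lost the call without RBM25_sh replicate 1, with an adjusted p of 0.101, and FAS without either RBM25_sh library. FAS shares 380 exon bases with ACTA2 on the other strand. TIGAR shares 1711 exon bases, 42.6% of its length, with AC008012.1 on the same strand, which was listed at 0 counts in every library. How reads from these shared bases were counted is not given.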

How the data were processed

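The data are 2 control_sh and 2 RBM25_sh RNA-seq libraries of HCT116 cells, grouped by the titles in the labels. Per the submitters' processing notes, the tools were Cuffdiff 2.1.1, Cufflinks 2.1.1, TopHat2 2.0.9 and Bowtie2 2.0.6, with no roles stated. How reads were counted, with which strand setting and on which build, is not given in the sources used here. Whole-number counts per gene and FPKM per gene were deposited by the authors for each library. In each library the deposited FPKM is the count over the gene's listed length times a single constant, so it adds no information on depth. The library size behind this constant was 1.06 and 1.10 times the total counts in control_sh replicates 1 and 2. It was 0.951 and 0.998 times the total in RBM25_sh replicates 1 and 2. Positions of all 58735 genes equal GENCODE release 29 on GRCh38, and 27 names held as calendar dates were taken from it.

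Counts were tested with edgeR 4.0.16 in R 4.3.3 (filterByExpr defaults, TMM, quasi-likelihood F test, group as the only term, 2 residual degrees of freedom, two-sided, Benjamini-Hochberg over 16091 genes, threshold 0.05). The SE is the log2 fold change divided by the square root of F. Libraries of a group differed beyond counting noise (chi-square divided by its degrees of freedom was 62.5 in control_sh and 24.6 in RBM25_sh), so none was counted as a duplicate. An exact permutation test of 2 against 2 libraries cannot go below a two-sided p of 0.333 and was not run. The members, the gene lists and the alternatives were chosen with earlier results of these data known. Some genes are in more than 1 list, so the lists are not independent. Named genes are the members, RBM25, the eIF2 kinases, some of the up to 4 genes of lowest adjusted p in each list, and the 3 nearest patterns to DDIT3 and ATF4, and others are marked. Alternatives used DESeq2 1.42.0 and limma 3.58.1. The GC trend was a lowess fitted in each library against transcript GC content, known for 16083 genes. The fits were tested on simulated data with a coefficient of variation of 0.16, below the 0.252 found here. The uncorrected fit recovered 57 of 100 changes of 2-fold and 99 of 100 of 4-fold. With a GC trend added between replicates it recovered 0 of each, and the GC-corrected fit 61 and 99, with 14 unchanged genes called. The added trend had a set size, not the one measured here. A gene not called without GC correction is therefore not shown to be unchanged. Figures used matplotlib 3.10.9.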

Additional observations from a re-analysis of the deposited data

How the results depend on the processing

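Of 15 alternatives, none turned the direction of a member or of RBM25. The 3 called members became 5 with no filter on low counts and 5 with the DESeq2 Wald test, 6 with the GC correction, and 1 to 6 when single libraries were left out. Over all genes, the 386 lower and 105 higher calls became 999 and 439 with no filter, 699 and 386 with DESeq2, 157 and 58 with limma-trend on log2 FPKM with a pseudocount of 1, and 2464 and 2054 with the GC correction. With a pseudocount of 0.1 the lower calls were 196. Leaving out single libraries gave 149 to 1514 lower and 55 to 875 higher calls. The 8 lower calls among other ATF4 targets became 17 with no filter, 17 with DESeq2, 3 and 4 with limma-trend at pseudocounts of 1 and 0.1, 31 with the GC correction, and 1 to 21 without single libraries, and the 0 higher calls became 2 with the GC correction. RBM25 was at −1.46 with an adjusted p of 0.0572 in limma-trend with a pseudocount of 1, and at −1.96 to −1.52 without single libraries. Scaling by library totals moved the median of all genes from −0.04 to −0.15. The cause of these changes was not tested.

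The groups share replicate numbers, but nothing in the labels says that a number marks a shared culture or day, and there are only 2 pairs. Deviations of same-numbered libraries correlated at 0.466 across genes. With the replicate block 3081 genes were called lower and 2641 higher, 7 members lower, and 31 other ATF4 targets lower. CHAC1 was called only with the block, at −0.57 with an adjusted p of 0.0044. The replicate block with GC correction gave 3307 lower and 3025 higher calls, 7 members, and 32 other ATF4 targets lower and 2 higher. Across libraries of a group, genes varied with a common coefficient of variation of 0.252.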
